A study of Mus musculus with 11 samples.

Results

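The primitive streak genes T, Mixl1, Eomes and Gsc were examined for open chromatin in mouse embryonic stem cells of 4 lines. The assay was ATAC-seq, in which a transposase cuts accessible DNA and the cut ends are sequenced. The members are the regions of the deposited count table whose start lies in a window around a gene: 15 regions at T on chromosome 17, 4 at Mixl1 on chromosome 1, 8 at Eomes on chromosome 9 and 8 at Gsc on chromosome 12. These are 35 of the 248336 regions in the table. All 35 passed the filter on low counts. The members are places in the genome, so each value is an accessibility and none is an RNA or protein level.

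The lines were B6 (3 libraries of the cell line B6 5-1, from C57BL/6J mice), D2 (3 libraries of D2 5-5, from DBA/2J) and a reciprocal pair of congenic lines. B6-13D2 (QJ 6-1, 2 libraries) has the strain name B6.D2-(rs30079041-rs51756099)/Bakr: a B6 genome with an interval from D2. D2-13B6 (XE 2-4, 3 libraries) has the strain name D2.B6-(rs29224292-rs13469455)/Bakr: a D2 genome with an interval from B6. For D2-13B6 the series text gives rs51756099 as the last marker of the interval in place of rs13469455, and which is right cannot be told from the labels. The first markers also differ, rs30079041 in B6-13D2 and rs29224292 in D2-13B6, so by name the exchanged intervals are not the same segment. Line names give chromosome 13 as the exchanged one, so none of the 4 genes lies on the chromosome that was exchanged. All cells, of every line, were grown in serum with LIF, 1 µM of the MEK inhibitor PD0325901 and 3 µM of the GSK3 inhibitor CHIR99021. Each genotype is a single cell line and the libraries of a line are technical replicates. Errors and p-values here therefore measure the spread between libraries, and a difference between groups is one between 2 cell lines.

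As background, the primitive streak is the site at which cells of the epiblast leave to form mesoderm and endoderm at gastrulation. WNT and Nodal signals, the latter carried by SMAD proteins, switch on its genes. T (brachyury) and Eomes encode T-box transcription factors, Mixl1 a paired-type homeodomain factor, and Gsc (goosecoid) a homeodomain factor of the anterior streak and organizer. Pluripotent stem cells keep these genes silent or low. GSK3 inhibition stabilises β-catenin, the WNT effector, and the MEK and GSK3 inhibitors together with LIF hold mouse cells in the naive state.

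Sequence is shown for the promoters of T, Eomes and Gsc, whose start-site accessibility is compared below together with that of Mixl1, and for the middle 300 bases of the 4 distal regions with the clearest differences between lines. Promoter sequences are from RefSeq on GRCm38.p6 and region sequences from the GRCm38 genome, which is that of C57BL/6J, so the D2 alleles are not shown. The T and Gsc promoters end at the base before the GENCODE start of the gene, and the Eomes promoter ends upstream of it. Capitals mark the letters of a motif or a repeat. The T promoter is chr17:8434173-8434422 on the plus strand, the Eomes promoter chr9:118477939-118478188 on the plus strand, and the Gsc promoter chr12:104473331-104473486 on the minus strand.
T promoter: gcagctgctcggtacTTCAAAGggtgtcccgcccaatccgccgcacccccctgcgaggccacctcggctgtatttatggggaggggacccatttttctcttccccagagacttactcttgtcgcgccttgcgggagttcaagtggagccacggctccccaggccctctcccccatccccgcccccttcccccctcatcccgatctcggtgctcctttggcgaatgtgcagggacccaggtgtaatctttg
Eomes promoter: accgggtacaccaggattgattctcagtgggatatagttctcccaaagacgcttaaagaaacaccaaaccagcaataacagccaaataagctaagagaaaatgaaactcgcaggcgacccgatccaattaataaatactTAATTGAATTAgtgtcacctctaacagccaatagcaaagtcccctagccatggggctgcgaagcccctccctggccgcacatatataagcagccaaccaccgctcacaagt
Gsc promoter: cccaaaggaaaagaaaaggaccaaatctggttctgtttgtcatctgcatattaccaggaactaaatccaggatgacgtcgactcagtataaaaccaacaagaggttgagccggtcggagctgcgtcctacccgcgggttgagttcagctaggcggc

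The 4 distal windows are given on the plus strand. They are chr9:118468423-118468722 and chr9:118471300-118471599 upstream of Eomes, chr12:104453184-104453483 downstream of Gsc, and chr17:8455855-8456154 downstream of T.
Eomes 9.64 kb upstream: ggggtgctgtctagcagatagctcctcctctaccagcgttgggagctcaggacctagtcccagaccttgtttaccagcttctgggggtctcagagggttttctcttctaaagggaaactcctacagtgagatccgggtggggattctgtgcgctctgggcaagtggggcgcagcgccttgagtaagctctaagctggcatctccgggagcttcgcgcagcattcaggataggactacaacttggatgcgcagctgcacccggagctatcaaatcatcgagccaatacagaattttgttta
Eomes 6.76 kb upstream: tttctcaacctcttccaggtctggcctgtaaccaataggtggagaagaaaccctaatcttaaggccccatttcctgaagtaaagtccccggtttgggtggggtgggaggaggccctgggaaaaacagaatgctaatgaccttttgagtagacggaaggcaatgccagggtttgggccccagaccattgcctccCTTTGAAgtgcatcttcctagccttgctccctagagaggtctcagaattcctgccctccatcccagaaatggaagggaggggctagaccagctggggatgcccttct
Gsc 20.0 kb downstream: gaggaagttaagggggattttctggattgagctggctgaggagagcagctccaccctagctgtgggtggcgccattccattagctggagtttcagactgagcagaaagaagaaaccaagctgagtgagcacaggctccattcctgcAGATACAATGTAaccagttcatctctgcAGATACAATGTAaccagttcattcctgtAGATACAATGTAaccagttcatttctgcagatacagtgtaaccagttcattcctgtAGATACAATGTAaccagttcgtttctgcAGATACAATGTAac
T 21.6 kb downstream: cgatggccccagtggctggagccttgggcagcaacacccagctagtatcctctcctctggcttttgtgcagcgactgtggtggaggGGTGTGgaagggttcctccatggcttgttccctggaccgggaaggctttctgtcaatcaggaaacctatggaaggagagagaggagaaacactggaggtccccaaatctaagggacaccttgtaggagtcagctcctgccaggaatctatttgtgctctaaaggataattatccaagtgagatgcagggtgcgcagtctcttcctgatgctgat

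Motifs were searched by exact letters on both strands: TCF/LEF (the letters CTTTGAT, or CTTTGTT instead, or the variants CTTTGAA as well as CTTTGTA), the T-box half-site (AGGTGTGA, and the shorter GGTGTG, which lies inside it), FOXH1 (AATCCACA, AATACACA), SMAD (GTCTAGAC, CAGACAG), the bicoid-class homeodomain (TAATCC), the paired homeodomain site, the POU octamer (ATTTGCAT) and SOX (ACAAAG or the longer variant ACAATGG). In the T promoter, bases 16 to 22 hold the TCF/LEF letters CTTTGAA on the minus strand, and 4.46% of 32851 promoters of the same 250 bases hold them. Any of the 4 TCF/LEF variants searched is in 14.8% of those promoters. The Eomes promoter holds a paired homeodomain match at bases 140 to 150, present in 0.463% of those promoters. None of the listed letters was found in the Gsc promoter, of which only 156 bases were searched, against 250 for T and Eomes. Of the distal windows, the Eomes region 6.76 kb upstream holds CTTTGAA at bases 194 to 200, as do 7.26% of 216549 windows of 300 bases in the table's regions. Any of the 4 variants is in 24.8% of those windows. The T region 21.6 kb downstream holds GGTGTG at bases 87 to 92, as do 26.5% of those windows. The Gsc region 20.0 kb downstream carries 5 exact copies of AGATACAATGTA, 28 to 56 bases apart. A 12-base string with at least 5 copies occurs in 0.968% of the windows, and this repeat was looked for after the region's values were seen. A match describes the letters of a window and says nothing about a bound factor.

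Accessibility is given as normalised CPM, the count of a region relative to its library's total after TMM scaling, a correction for libraries that differ in composition. The 11 libraries held 15198496 to 43042955 counts in all regions, of which 3307 to 7223 fell in the 35 regions. Intervals and errors from so few counts cover counting error and library spread only. The TMM factors of the D2-13B6 libraries were 0.8945, 0.7687 and 0.9968, against 1.0673 to 1.1016 in the B6 and B6-13D2 libraries and 0.9694 to 1.01 in D2. D2-13B6 replicates 1 and 2 thus lay below all other libraries, and replicate 3 lay within the D2 range. Regions within 1000 bp of a start site held 38.9% ± 0.569 (SD, n = 3) of the counts in B6, 39.0% ± 0.0707 (n = 2) in B6-13D2, 44.0% ± 2.48 (n = 3) in D2-13B6 and 43.7% ± 1.31 (n = 3) in D2. Markers were read as promoter accessibility. All 8 embryonic stem cell markers, Pou5f1, Sox2, Nanog, Esrrb, Klf4, Zfp42, Tfcp2l1 and Dppa5a, had a promoter region, at 5.42 to 10.1 CPM per kb on average, and none was at 0. Their summed level was 409 to 429 CPM in B6, 412 to 433 in B6-13D2, 372 to 409 in D2 and 266 to 303 in D2-13B6. Of the 8, Klf4 went the other way and was highest in D2-13B6, at 12.2 CPM per kb against 6.99 in B6, 5.98 in B6-13D2 and 9.18 in D2. The feeder fibroblast markers (5 of 6 with a promoter region, none of the 5 at 0) summed to 67.8 to 71.7 CPM in B6, 58.4 to 65.6 in B6-13D2, 82.9 to 87.1 in D2 and 119 to 157 in D2-13B6. The primitive endoderm markers (6 of 6, none at 0) summed to 109 to 115, 101 to 105, 126 to 139 and 131 to 182 CPM in the same order. Dab2 (22.0 against 6.81 CPM per kb), Col4a1 (10.6 against 6.83) and Gata6 (8.41 against 5.34) were higher in D2-13B6 than in B6. Gata4 (4.6 against 5.25), Sox7 (4.78 against 5.21) and Lama1 (8.02 against 8.22) were lower. Primed epiblast markers (5 of 5) lay between 72.4 and 101 CPM and trophoblast markers (5 of 5) between 97.1 and 129 CPM over all libraries. In summed level the D2-13B6 libraries thus lay below all others for the stem cell markers and above all others for the fibroblast markers, while their endoderm marker range overlapped that of D2. The part of these differences in the results below was not tested.

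Per kb of region, so that regions of different width can be compared, the start-site regions averaged 7.47 CPM at Mixl1, 6.45 at Eomes, 4.18 at T and 4.06 at Gsc over the 11 libraries. The median over all regions was 3.33 and the median over promoter regions 5.54, with quartiles at 3.37 and 9.09. All 4 start sites therefore lay above the median region and inside the middle range of promoters. The region 20.0 kb downstream of Gsc was the most accessible per kb of the 35, at 8.63 CPM (percentile 90.8 of all regions). The region 25.4 kb upstream of T, in an intron of the neighbouring gene T2, averaged 7.8 CPM per kb (percentile 88.4). The lowest member was 18.6 kb downstream of T, at 2.3 CPM per kb. Other genes share the windows: 7 of the 15 T regions lie in T2, the Eomes region 28.4 kb downstream is the promoter of Golga4, and the long noncoding gene Gm10000 shares the Gsc promoter. ATAC-seq does not assign a region to either neighbour.

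**Figure D1:**
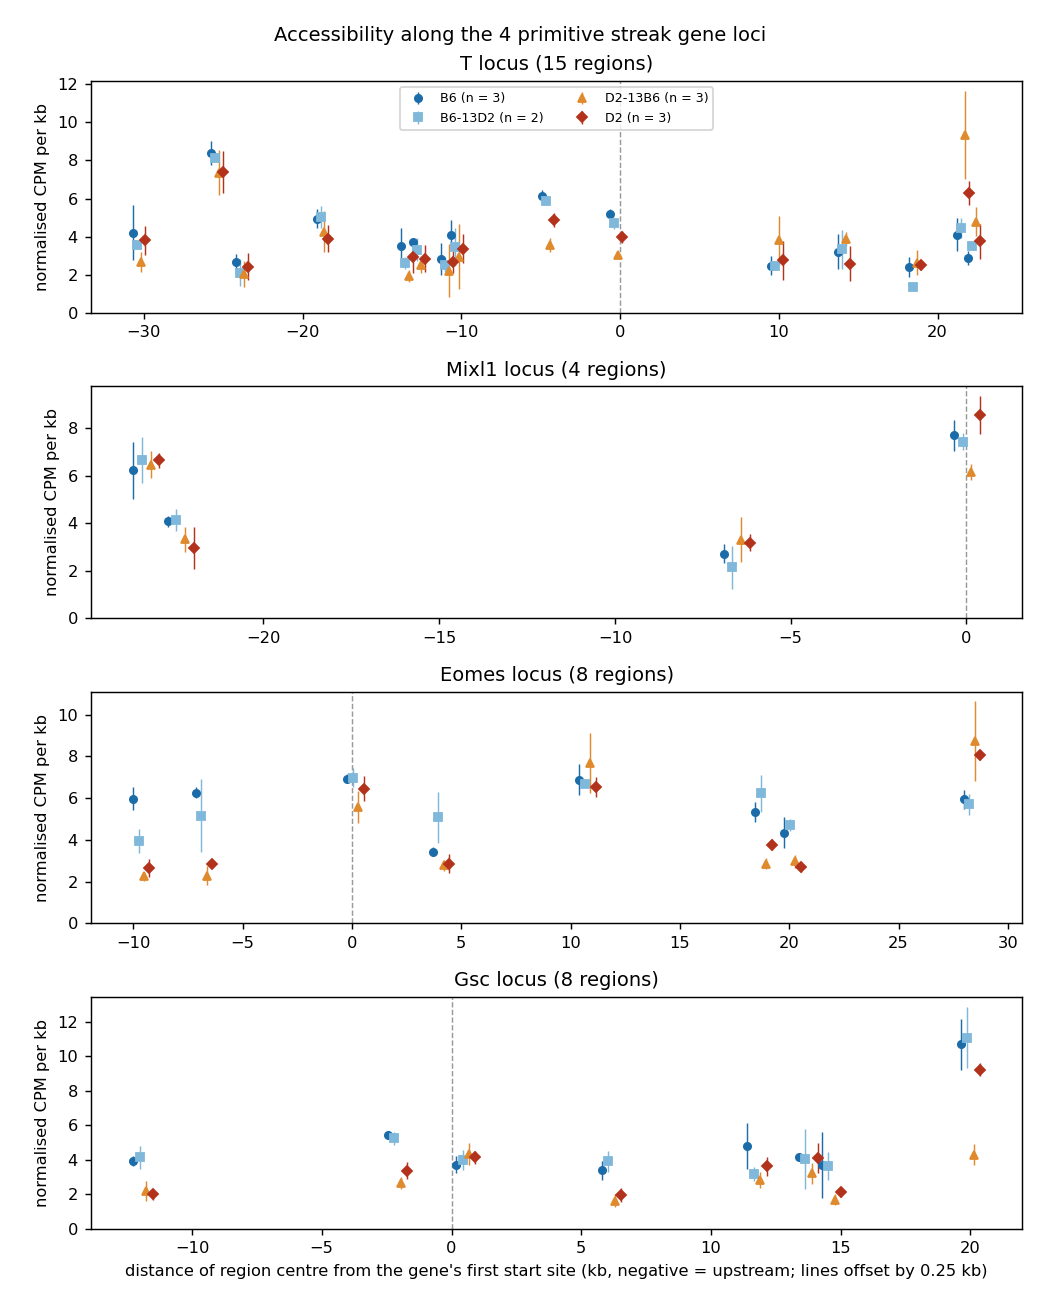
Normalised CPM per kb (mean, with bars of 1 SD over the libraries of a line) against the distance in kb of each region's centre from the gene's first start site, for the 4 loci and 4 lines. The largest separation is 20.0 kb downstream of Gsc, where D2-13B6 averages 4.3 and the other lines 9.24 to 11.1 CPM per kb.

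Between the parental lines, Eomes and Gsc carried most of the differences. In D2 against B6, 8 of the 35 regions passed edgeR's quasi-likelihood test at an adjusted p under 0.05 (22.9%), beside 22.5% of all regions tested, so the share called was that of the table. Of the 8, 1 was higher in D2 (2.86% of members, against 13.7% of all regions) and 7 were lower (20.0%, against 8.80%). The 7 lower regions were 4 of 8 at Eomes and 3 of 8 at Gsc, and the higher one was at T. No Mixl1 region was called by edgeR or had an unadjusted p under 0.05. The median log2 fold change of the 35 regions was -0.26, against -0.01 over all regions.

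The D2 interval in the B6 genome gave no call at these loci. In B6-13D2 against B6, 0 of 35 regions passed edgeR's test (0.474% of all regions did), 2 had an unadjusted p under 0.05, and DESeq2 also called 0. The median log2 fold change was -0.04. In the D2 genome, D2 against D2-13B6 called 3 regions: 2 were higher with the D2 interval (5.71%, against 8.53% of all regions) and 1 was lower (2.86%, against 15.2%). In all, 8.57% of members were called beside 23.7% of all regions. By total counts without TMM factors, which moves the median of all regions by 0.17 on the log2 scale, 9 members were called and all were higher; with the size factors of DESeq2 in edgeR, 1 was higher and 1 lower.

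The widest contrast was D2-13B6 against B6, which differ in the rest of the genome and have the same parental type inside the interval. Here 16 of 35 regions were called (45.7%, beside 41.7% of all regions). Lower in D2-13B6 were 13 (37.1%, against 20.1% of all regions): 6 of 8 at Gsc, 4 of 8 at Eomes and 3 of 15 at T. Higher were 3 (8.57%, against 21.6%): 2 at T and 1 at Eomes. The members' median log2 fold change was -0.38 and that of all regions -0.13. Scaling by total counts shifts the latter by -0.29 and gave 20 lower and 1 higher member. D2 against B6-13D2, the other comparison across genomes with a shared interval type, called 7 regions, all lower in D2 (20.0%, beside 18.8% of all regions called, with 11.6% higher and 7.24% lower). They were 4 at Eomes and 3 at Gsc. These comparisons share libraries with each other, so their lists are not independent. Leaving out B6 replicate 2 or D2 replicate 1 brought D2 against B6 to 5 regions, leaving out D2 replicate 2 brought D2 against D2-13B6 to 5, and leaving out B6-13D2 replicate 1 or 2 brought D2 against B6-13D2 to 3 or 2.

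**Figure D2:**
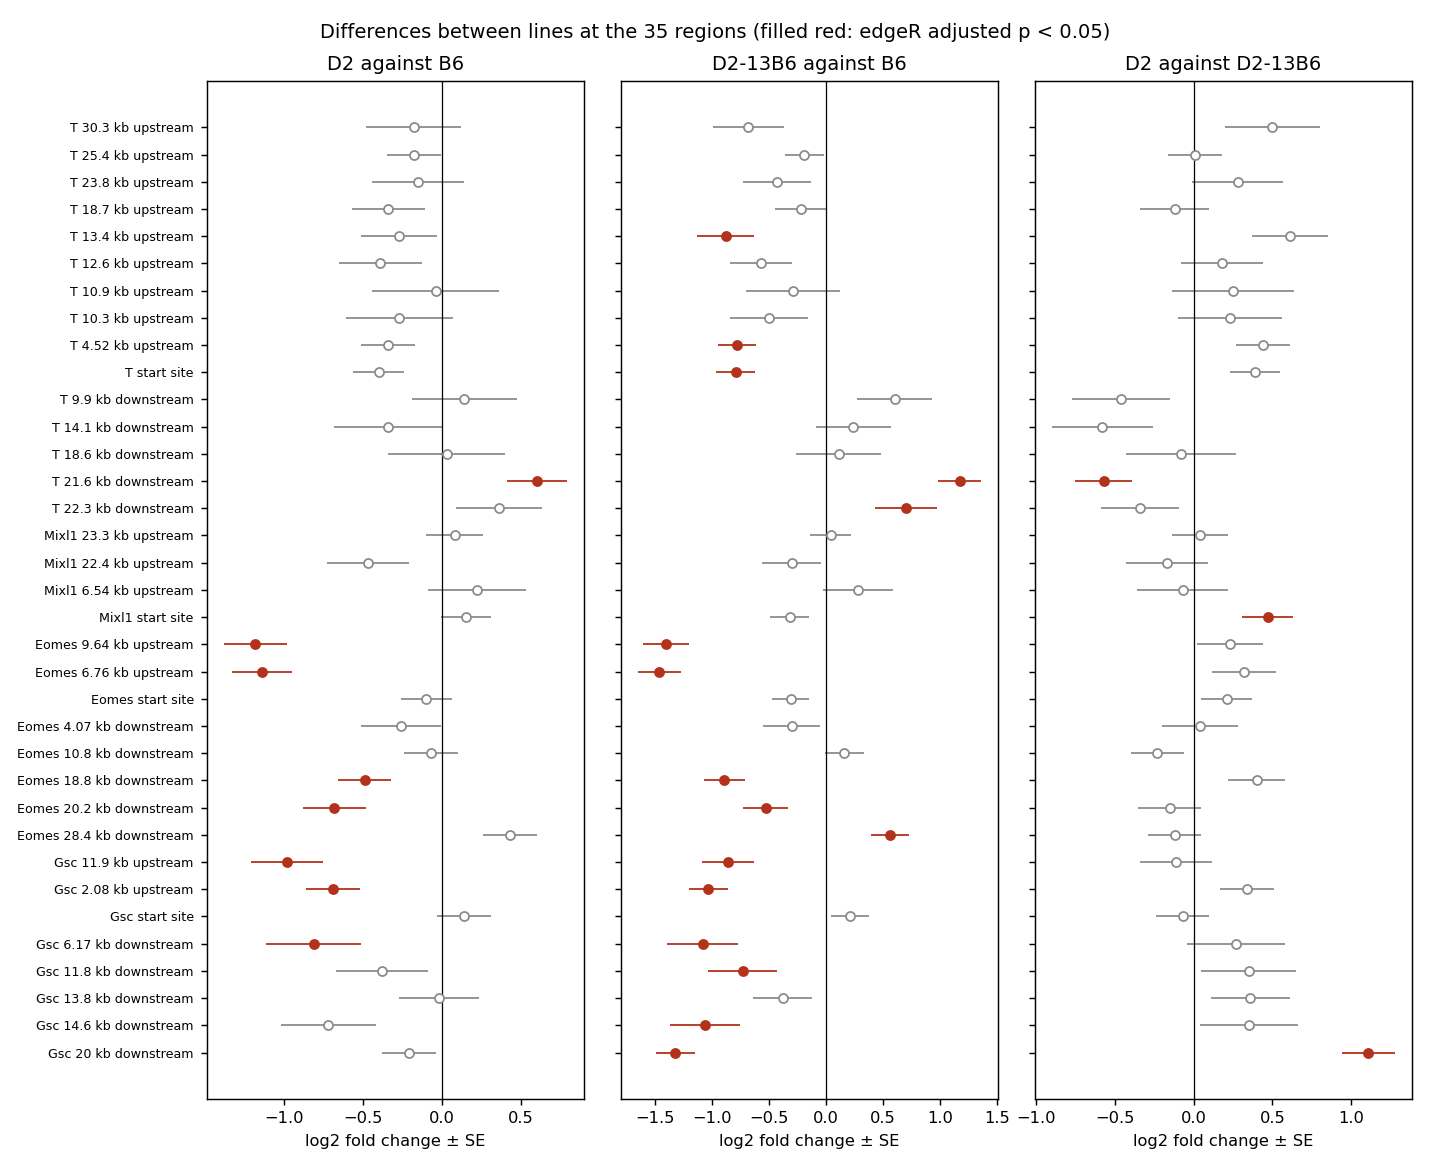
log2 fold change with SE (horizontal axis) of each of the 35 regions (rows, ordered along each locus) in 3 comparisons, with filled red points for an edgeR adjusted p under 0.05. In the first 2 panels most called regions lie left of 0 at Eomes and Gsc, and in the third 3 regions are called.

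T, also named brachyury, is the general marker of streak and early mesoderm. Its start-site region (chr17:8432905-8435419, first exon, UTR and upstream sequence) measured 13.6, 12.4 and 13.3 CPM in B6, 11.3 and 12.3 in B6-13D2, 9.36, 9.64 and 10.9 in D2, and 7.69, 7.58 and 7.50 in D2-13B6. The 4 lines followed each other in that order without overlap. In D2-13B6 the region was 1.73-fold lower than in B6 (log2 fold change with SE -0.79 ± 0.17, edgeR adjusted p = 5.73e-05). Neither D2 against B6 (-0.40 ± 0.16, edgeR adjusted p = 0.067) nor D2 against D2-13B6 (0.39 ± 0.16, edgeR adjusted p = 0.0736) passed.

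A region 4.52 kb upstream of T, named after its values were seen, had the same order, with means of 8.21 ± 0.441 (SD, n = 3) CPM in B6, 7.89 ± 0.0967 (n = 2) in B6-13D2, 6.51 ± 0.494 (n = 3) in D2 and 4.77 ± 0.506 (n = 3) in D2-13B6. It was lower in D2-13B6 than in B6 (log2 fold change -0.78 ± 0.17, edgeR adjusted p = 0.000159). A weaker region 13.4 kb upstream, in a T2 intron, was also lower in D2-13B6 (1.5 ± 0.237 CPM, SD, n = 3) than in B6 (2.73 ± 0.753, n = 3; -0.88 ± 0.25, edgeR adjusted p = 0.00288).

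On the other side of the gene the direction turned. The intergenic region 21.6 kb downstream of T (chr17:8455511-8456498), whose middle is printed above, measured 3.89, 3.29 and 4.99 CPM in B6, 4.00 and 4.73 in B6-13D2, 6.74, 6.37 and 5.50 in D2, and 7.69, 11.8 and 8.08 in D2-13B6. All D2-13B6 libraries exceeded all D2 libraries, and these exceeded all B6 and B6-13D2 libraries, which overlapped each other. D2-13B6 was 2.25-fold higher than B6 (log2 fold change 1.17 ± 0.19, edgeR adjusted p = 4.88e-07). D2 was 1.52-fold higher than B6 (0.60 ± 0.19, edgeR adjusted p = 0.0154), a call lost without B6 replicate 1 (edgeR adjusted p = 0.0774), B6 replicate 2 (0.113) or D2 replicate 1 (0.0804). D2 was lower than D2-13B6 (-0.57 ± 0.18, edgeR adjusted p = 0.0137). That call was lost with total counts (adjusted p = 0.0696), without D2-13B6 replicate 2 (-0.34, adjusted p = 0.171) or without D2 replicate 3 (adjusted p = 0.0827). The adjoining region 22.3 kb downstream (chr17:8456513-8456937) was also higher in D2-13B6, at 1.74, 1.97 and 2.37 CPM against 1.40, 1.10 and 1.18 in B6 (log2 fold change 0.70 ± 0.27, edgeR adjusted p = 0.0319), on 18 to 70 counts a library. This call was lost with total counts (adjusted p = 0.234) and without B6 replicate 2, B6 replicate 3 or D2-13B6 replicate 3 (adjusted p = 0.0871 to 0.106). The most accessible T region per kb, 25.4 kb upstream (chr17:8408386-8409716), overlapped in all neighbouring lines, from 8.78 to 12.1 CPM over the 11 libraries. It and 9 further T regions were called in no comparison. Within the T window, then, the start site and its near upstream side were lower in D2-13B6 than in B6, and the pair of regions over 20.0 kb downstream were higher.

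Eomes, the T-box factor needed for definitive endoderm and for the exit of cells from the streak, had its differences away from the promoter. Its start-site region (chr9:118476611-118480139) measured 24.2, 24.0 and 25.3 CPM in B6, 25.7 and 23.5 in B6-13D2, 25.3, 21.5 and 21.5 in D2, and 20.3, 22.1 and 16.8 in D2-13B6. Neighbouring lines overlapped. D2 against B6 gave a log2 fold change of -0.10 ± 0.16 with a 95% interval of -0.42 to 0.22.

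The 2 intergenic regions upstream of Eomes showed the largest differences between the parental lines at the 4 loci. The one 9.64 kb upstream (chr9:118468073-118469072) measured 6.59, 5.61 and 5.69 CPM in B6, 4.37 and 3.54 in B6-13D2, 2.49, 2.30 and 3.15 in D2, and 2.10, 2.52 and 2.17 in D2-13B6. The B6 libraries were highest, B6-13D2 lay between, and D2 and D2-13B6 overlapped at the bottom. D2 was 2.26-fold lower than B6 (log2 fold change -1.18 ± 0.20, edgeR adjusted p = 4.69e-06) and D2-13B6 was 2.65-fold lower (-1.40 ± 0.20, edgeR adjusted p = 2.56e-08). This region also had the smallest p of all 35 for the D2 interval in the B6 genome, with a log2 fold change of -0.60 ± 0.23 and a 95% interval of -1.04 to -0.15. It did not pass edgeR's test over all regions (unadjusted p = 0.0107, adjusted p = 0.416).

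The region 6.76 kb upstream (chr9:118470773-118472126), which holds the TCF/LEF letters printed above, measured 8.18, 8.36 and 8.89 CPM in B6, 5.32 and 8.67 in B6-13D2, 3.92, 4.02 and 3.58 in D2, and 2.39, 3.39 and 3.51 in D2-13B6. The B6-13D2 libraries lay apart from each other, one beside B6 and one below it. D2 was 2.21-fold lower than B6 (log2 fold change -1.14 ± 0.19, edgeR adjusted p = 3.13e-06) and D2-13B6 2.75-fold lower (-1.46 ± 0.19, edgeR adjusted p = 2.24e-09). D2 was also lower than B6-13D2 (-0.86 ± 0.21, edgeR adjusted p = 0.00172), a call lost without B6-13D2 replicate 2 (-0.47, adjusted p = 0.306). At both upstream regions the lines with a D2 genome outside chromosome 13 were low. Whether D2 sequence differences from the reference genome changed the mapping of D2 reads there was not tested.

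Downstream of Eomes, accessibility differed in both directions. The intergenic region 18.8 kb downstream (chr9:118496316-118497766) measured 7.52, 8.48 and 7.18 CPM in B6, 8.14 and 9.97 in B6-13D2, 5.03, 5.70 and 5.70 in D2, and 3.90, 4.61 and 3.99 in D2-13B6. It was lower in D2-13B6 than in B6 (log2 fold change -0.89 ± 0.18, edgeR adjusted p = 3.28e-05). It was also lower in D2 than in B6 (-0.49 ± 0.17, edgeR adjusted p = 0.0328), but that call was lost without any 1 of the B6 or D2 libraries (adjusted p = 0.0527 to 0.144). D2 against B6-13D2 gave -0.72 ± 0.19 (edgeR adjusted p = 0.00413), lost without B6-13D2 replicate 2 (adjusted p = 0.147). The Golga4 promoter 28.4 kb downstream (chr9:118505677-118507454) moved the other way, at 11, 9.64 and 11 CPM in B6, 10.8 and 9.47 in B6-13D2, 14.1, 14.0 and 14.8 in D2, and 15.6, 18.9 and 12.1 in D2-13B6. Only D2-13B6 against B6 passed (0.56 ± 0.17, edgeR adjusted p = 0.00592), and it was lost with total counts (0.24, adjusted p = 0.122). The remaining called Eomes regions were 20.2 kb downstream, lower in D2 and in D2-13B6 than in B6 and in D2 than in B6-13D2, and 4.07 kb downstream inside the gene, lower in D2 than in B6-13D2. The region 10.8 kb downstream, at the start of the antisense gene Gm33460, was called in no comparison.

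Mixl1, a homeodomain gene of the streak needed for endoderm to form, had the most accessible start site per kb and only 4 regions. D2 against D2-13B6 called 1 of the 4, beside 1 of 15 at T, 1 of 8 at Gsc and 0 of 8 at Eomes. No other comparison called a region at Mixl1. Its start-site region (chr1:180696168-180697875) measured 14.3, 13.0 and 12.1 CPM in B6, 12.3 and 13.1 in B6-13D2, 16.0, 13.3 and 14.7 in D2, and 9.95, 10.6 and 11.1 in D2-13B6. D2-13B6 lay below the other lines, which overlapped in order of level. D2 was 1.39-fold higher than D2-13B6 (log2 fold change 0.47 ± 0.16, edgeR adjusted p = 0.024). The call was lost with the size factors of DESeq2 in edgeR (adjusted p = 0.0838), in a fit of those 2 lines alone (0.124), and without D2-13B6 replicate 1, D2 replicate 1 or D2 replicate 3 (0.0612 to 0.133). D2 against B6 gave 0.15 ± 0.16 with a 95% interval of -0.17 to 0.47. The region 23.3 kb upstream (chr1:180719940-180720800) had line means of 5.36 to 5.73 CPM, and all neighbouring lines overlapped. The other 2 Mixl1 regions averaged 1.14 and 1.68 CPM and passed no test.

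Gsc, the homeodomain gene of the anterior streak and organizer, had the largest difference between a line and the other 3. Its start-site region (chr12:104471693-104473870), shared with Gm10000, was called in no comparison. It measured 8.18, 7.01 and 9.19 CPM in B6, 9.60 and 7.82 in B6-13D2, 8.85, 8.35 and 9.86 in D2, and 10.3, 10.2 and 7.81 in D2-13B6. All neighbouring lines overlapped. D2 against B6 gave a log2 fold change of 0.14 ± 0.17 with a 95% interval of -0.19 to 0.48.

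The intergenic region 20.0 kb downstream (chr12:104452410-104454256), which carries the repeat printed above, measured 19.7, 17.0 and 22.5 CPM in B6, 18.2 and 22.8 in B6-13D2, 17.7, 17.1 and 16.3 in D2, and 6.70, 8.91 and 8.19 in D2-13B6. The D2-13B6 libraries reached at most 8.91 CPM and the other 8 libraries at least 16.3. D2-13B6 was 2.50-fold lower than B6 (log2 fold change -1.32 ± 0.17, edgeR adjusted p = 1.36e-09), and D2 was 2.15-fold higher than D2-13B6 (1.11 ± 0.17, edgeR adjusted p = 5.25e-07). Both calls held in all alternatives run for them. D2 against B6 gave -0.21 ± 0.17 (95% interval -0.54 to 0.11, edgeR adjusted p = 0.403) and B6-13D2 against B6 gave 0.05 ± 0.19 (95% interval -0.31 to 0.42). How reads that map to several places were treated is not given in the sources used here, and 5.7% of the region is marked as repeat in the genome.

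An interaction was tested for every region, the log2 fold change of B6-13D2 against B6 minus that of D2 against D2-13B6. The intervals differ by name and each genotype is a single cell line, so it compares differences between cell lines. One of 35 regions passed (2.86%, beside 6.54% of all regions): the Gsc region 20.0 kb downstream, with -1.05 ± 0.25 (95% interval -1.55 to -0.56, edgeR adjusted p = 0.00708). It was lost without B6-13D2 replicate 1 (-0.90, adjusted p = 0.0975), and without D2 replicate 2 a second member was called. With total counts 5 members were called, all negative. Over all regions the interaction gave 11225 higher and 4917 lower calls with TMM, 13058 and 3167 with RLE size factors, and 7554 and 11852 with total counts, so total counts moved the calls over the whole table in the direction of those 5.

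**Figure D3:**
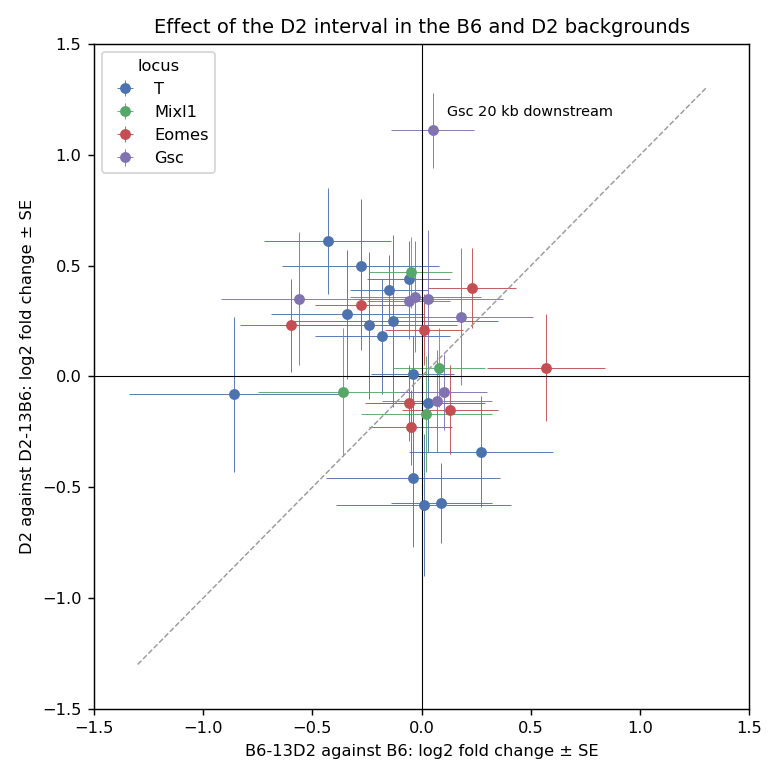
log2 fold change with SE for the D2 interval in the B6 genome (horizontal) and in the D2 genome (vertical) for the 35 regions, coloured by locus, with a dashed line where both would be equal. The Gsc region 20.0 kb downstream stands apart, at 0.05 on the horizontal and 1.11 on the vertical axis.

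At 2 regions upstream of Gsc, accessibility was lower in both lines with a D2 genome than in B6. The region 11.9 kb upstream (chr12:104484792-104485665) measured 3.69, 3.35 and 3.24 CPM in B6, 3.18 and 4.04 in B6-13D2, 1.45, 1.79 and 2.01 in D2, and 1.32, 2.12 and 2.27 in D2-13B6. The B6 and B6-13D2 libraries overlapped each other and lay above all D2 and D2-13B6 libraries. D2 was 1.97-fold lower than B6 (log2 fold change -0.98 ± 0.23, edgeR adjusted p = 0.000853) and D2-13B6 1.82-fold lower (-0.86 ± 0.23, edgeR adjusted p = 0.00152). D2 was also lower than B6-13D2 (-1.04 ± 0.26, edgeR adjusted p = 0.00168), a call lost without B6-13D2 replicate 2 (adjusted p = 0.08). The region 2.08 kb upstream, named after its values were seen, had the same form, with means of 11 ± 0.409 (SD, n = 3) CPM in B6, 10.6 ± 0.717 (n = 2) in B6-13D2, 6.84 ± 1.03 (n = 3) in D2 and 5.39 ± 0.710 (n = 3) in D2-13B6. That region covers an annotated start site of Gm10000. D2 and D2-13B6 were both lower than B6 there (-0.69 ± 0.17 and -1.03 ± 0.17, edgeR adjusted p = 0.00147 and 9.93e-07). The weaker regions 6.17, 11.8 and 14.6 kb downstream averaged 1.19 to 1.38 CPM and were lower in D2-13B6 than in B6. Their log2 fold changes were -1.08 ± 0.31, -0.73 ± 0.30 and -1.06 ± 0.31 (edgeR adjusted p = 0.00321, 0.046 and 0.0042). At 14.6 kb the 2 lines overlapped, with a B6 library at 0.998 CPM and a D2-13B6 library at 1.04. The region at 6.17 kb was also lower in D2 than in B6 and in B6-13D2. The region 13.8 kb downstream was called in no comparison. Whether sequence differences between D2 and the reference genome changed the mapping of D2 reads in these or any other member regions was not tested.

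**Figure D4:**
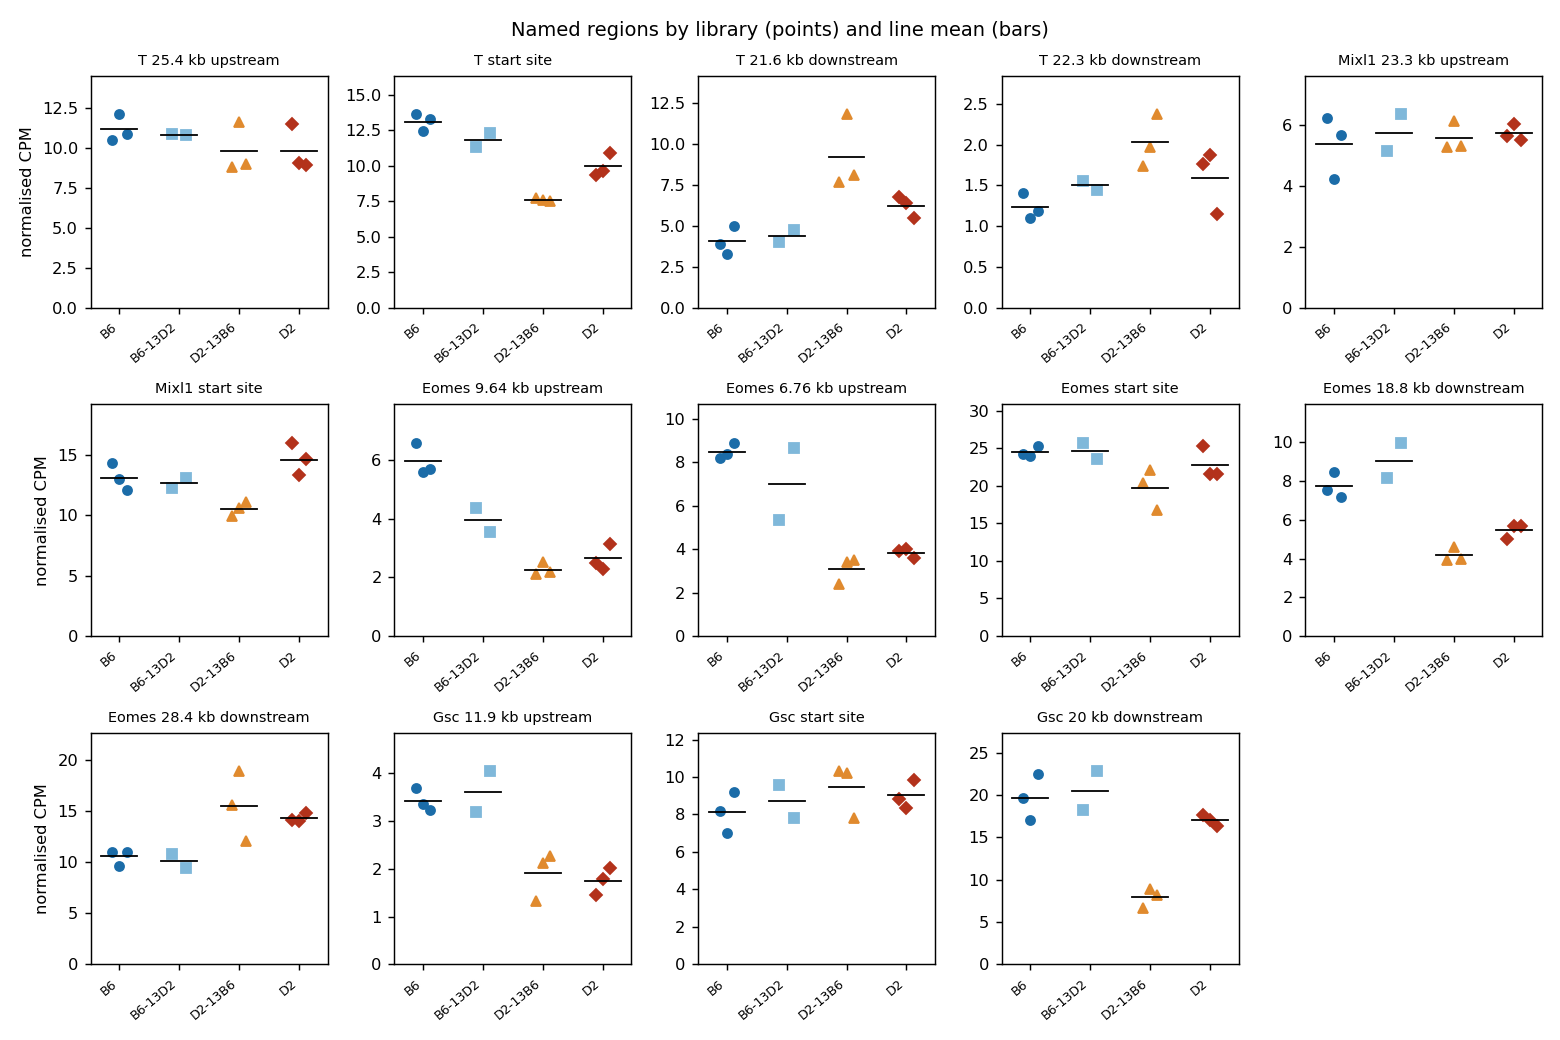
Normalised CPM of every library (points, offset sideways for visibility) and the mean of each line (bars) for the 14 regions named by rule, with the vertical axis of each panel starting at 0. The start-site panels of Eomes and Gsc overlap between neighbouring lines, while the distal panels of Eomes 9.64 kb upstream and Gsc 20.0 kb downstream separate lines.

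Summed over its window, the Gsc regions measured 49.4 ± 2.98 (SD, n = 3) CPM in B6, 50.2 ± 3.03 (n = 2) in B6-13D2, 39.9 ± 1.03 (n = 3) in D2 and 28.8 ± 2.23 (n = 3) in D2-13B6, with no overlap between D2-13B6, D2 and the pair of lines with a B6 genome. Of these sums the region 20.0 kb downstream held 19.7 CPM in B6 and 7.93 in D2-13B6. The Gsc start-site region averaged 8.13 CPM in B6 and 9.45 in D2-13B6. The Eomes sums were 82.1 ± 2.07, 80.3 ± 0.506, 70.7 ± 2.26 and 69.8 ± 10.5 CPM in the same order, and the wide SD of D2-13B6 overlapped the rest. T sums were 52.9 ± 2.13, 49.6 ± 1.65, 47.2 ± 1.89 and 45.6 ± 2.74 CPM. Mixl1 sums were 21.5 ± 1.86, 21.2 ± 1.57, 23.0 ± 0.932 and 19 ± 1.12 CPM. With total counts in place of TMM, the D2-13B6 sums lay below those of all other libraries at each locus. At Eomes they were 59.7 to 62.1 CPM against at least 69.6 elsewhere, and at T 37.4 to 44.7 against at least 45.3. At Mixl1 they were 15.5 to 18.8 CPM against at least 21.7, and at Gsc 24.1 to 27.0 against at least 39.5. No test was made on the sums. The lower levels at Gsc were larger than those of its surroundings: in D2-13B6 against B6 the median log2 fold change was -0.95 in the window, -0.33 over 273 other regions within 1000 kb and -0.18 over chromosome 12. For Eomes the same medians were -0.42, -0.12 (236 regions) and -0.14. For T they were -0.29, -0.08 (199 regions) and -0.16, and for Mixl1 -0.13, -0.02 (296 regions) and -0.15. These medians are descriptions.

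The pathways that act on the streak genes were read at promoter regions of 67 genes, chosen with earlier results of these data known, in 110 regions. A promoter region lies within 1000 bp of any annotated start site of a gene, so a gene can have several. Values given below for a gene are those of a single region with the smallest p in its list, which need not be at the main start site. In D2 against B6, 30 promoter regions were higher (24.8% of all promoter regions were) and 6 lower (6.60%). In B6-13D2 against B6, none of the 110 passed edgeR's or DESeq2's test (0.263% of all promoter regions passed edgeR's), and 1 had an unadjusted p under 0.05. In D2 against D2-13B6, 11 were higher (8.04%) and 22 lower (15.8%), and in D2-13B6 against B6, 46 were higher (37.4%) and 23 lower (17.2%). The last 2 splits depend on scaling: with total counts they were 23 higher and 17 lower, and 31 higher and 41 lower. With total counts D2 against B6 gave 27 higher and 15 lower. The 36 calls of D2 against B6 became 22 without B6 replicate 1, 20 without B6 replicate 2 and 23 without D2 replicate 1 or 3, and the 33 calls of D2 against D2-13B6 became 51 without D2-13B6 replicate 3. The same shares of all promoter regions stand beside the counts by list below. Splits by list with total counts are not given, and no test was made on a list.

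Among the 20 other streak and early mesendoderm genes (25 regions), 2 were higher and 1 lower in D2 against B6, and 4 higher and 9 lower in D2-13B6 against B6. A region (chr11:84522611-84523066) at Lhx1, a LIM homeodomain gene of the anterior streak, was higher in D2 (5.12 ± 0.669 CPM, SD, n = 3) than in B6 (2.83 ± 0.483, n = 3; log2 fold change with SE 0.86 ± 0.21, edgeR adjusted p = 0.00146). It was higher again in D2-13B6 (10.2 ± 3.55, n = 3; 1.86 ± 0.21 against B6, edgeR adjusted p = 1.49e-11). Msgn1, a factor of presomitic mesoderm, was lower in D2 than in B6 (3.35 ± 0.784 against 5.04 ± 0.694, n = 3 each; -0.59 ± 0.20, edgeR adjusted p = 0.0243). Cdx1, a posterior patterning gene, was lower in D2-13B6 (16.6 ± 0.825) than in B6 (36.0 ± 1.39; -1.12 ± 0.16, edgeR adjusted p = 4.13e-08). So the list held regions in both directions.

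Of the Nodal pathway genes (16 genes, 28 regions), 10 regions were higher and 2 lower in D2 against B6, and 14 higher and 5 lower in D2-13B6 against B6. Called were thus 42.9% and 67.9% of the list's regions. Lefty1, a secreted Nodal inhibitor and Nodal target, was lower in D2 (15.3 ± 1.43 CPM) and D2-13B6 (12 ± 2.49) than in B6 (23.5 ± 1.87; log2 fold changes -0.61 ± 0.17 and -0.97 ± 0.17, edgeR adjusted p = 0.00432 and 2.61e-06). Acvr2a, an activin receptor, was higher in D2 than in B6 (18.2 ± 4.94 against 9.63 ± 0.956; 0.91 ± 0.19, edgeR adjusted p = 0.00013). A region at Furin, which cleaves the Nodal precursor, was higher in D2-13B6 (15.1 ± 3.47) than in B6 (3.87 ± 0.977; 1.94 ± 0.19, edgeR adjusted p = 7.07e-14).

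Of the WNT pathway genes (20 genes, 37 regions), 9 regions were higher and 3 lower in D2 against B6, and 15 higher and 4 lower in D2-13B6 against B6. Called were thus 32.4% and 51.4% of the list's regions. Gsk3b, which encodes a target of CHIR99021, was higher in D2 than in B6 (108 ± 10.7 against 65.6 ± 2.29 CPM; log2 fold change 0.72 ± 0.17, edgeR adjusted p = 0.00104). A region (chr6:134470610-134471430) at Lrp6, a WNT co-receptor, was lower in D2 than in B6 (3.09 ± 0.205 against 5.81 ± 0.646; -0.90 ± 0.19, edgeR adjusted p = 0.000213). Of the BMP pathway genes (11 genes, 20 regions), 9 regions were called in D2 against B6, all higher in D2, and 13 were higher and 5 lower in D2-13B6 against B6. Called were thus 45.0% and 90.0% of the list's regions. Of all promoter regions, 24.8% were higher and 6.60% lower in the first comparison, and 37.4% and 17.2% in the second. Bmpr1a, a BMP receptor, was higher in D2 than in B6 (17.3 ± 2.85 against 8.33 ± 1.09; 1.04 ± 0.19, edgeR adjusted p = 1.64e-05). A promoter of Bmp4, a ligand needed for streak formation, was higher in D2 (11.3 ± 0.169) than in D2-13B6 (5.94 ± 1.16; 0.93 ± 0.17, edgeR adjusted p = 1.41e-05).

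Likeness between promoters was described by Pearson's r of log2 CPM over the 11 libraries, which share line, depth and scaling. Between the 4 start sites r was 0.705 for Eomes and T, 0.559 for Mixl1 and T, 0.493 for Eomes and Mixl1, 0.0417 for Eomes and Gsc, -0.316 for Gsc and Mixl1 and -0.383 for Gsc and T. The Gsc start site thus had r near 0 or below with each of the other 3. Among 25938 to 25957 other promoter regions, the nearest to T were Psors1c2 (r = 0.99), 1700109H08Rik (0.98) and Csmd2 (0.974). All were lowest in D2-13B6, as was the T start site that they were chosen to match. The nearest to Mixl1 were Nudt14 (0.961), Rps6kl1 (0.928) and Hus1b (0.923). Slc43a1 (0.957) and Tspoap1 (0.954) were among the nearest to Eomes. The nearest to Gsc were Itfg2 (0.961), Ednrb (0.945) and Rgs17 (0.928). These values are among the highest of that many candidates and are given as descriptions.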

How the data were processed

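ATAC-seq was measured in 11 libraries of 4 lines, each from 100000 cells (FAST-ATAC, read length 150 bp, per the labels' protocols). The values are raw counts per region that the authors deposited as one table without normalization. Per the submitters' processing notes, Trimmomatic 0.39, BWA 0.7.5, Picard 2.0.1, MACS 1.4.2, bedtools 2.9.2 and edgeR 3.34.1 were used with build mm10. Their roles, the transposase shift, whether reads or fragments were counted and the treatment of multimapping reads are not given in the sources used here. Coordinates are as the table lists them. GENCODE M21 gave annotations.

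Counts were tested with edgeR 4.0.16 (R 4.3.3; quasi-likelihood, TMM, filterByExpr by group, robust) in one fit of the 11 libraries, with each line as a group. P-values were adjusted by Benjamini-Hochberg over the 246840 regions tested. A region was called at an adjusted p under 0.05. DESeq2 1.42.0, other scalings, filters, a minimum fold, a replicate block and left-out libraries were alternatives. log2 CPM used a prior count of 2. Scripts were tested on simulated data for D2 against B6. Called there were 5.97% of 67 regions changed 1.5-fold, 46.3% of 67 changed 2-fold and 97% of 66 changed 4-fold. All calls there numbered 103, fewer than in the data, so these shares are not those of the data. A region without a call is thus not shown to be unchanged. Chi-square per degree of freedom between libraries of a line was at least 2.06, so none was a copy.

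Members and gene lists were chosen with earlier results of these data known. Named regions were, by rule, the start-site regions, the most accessible other region per kb of each locus, up to 3 called regions per comparison and direction with the smallest p, and for B6-13D2 against B6 the smallest p. Named pathway genes had the smallest p of a list in a direction. A promoter near Eomes in likeness is not reported here.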

Additional observations from a re-analysis of the deposited data

Results flagged for a closer look

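At the Gsc region 20.0 kb downstream, B6-13D2 against B6 and D2 against D2-13B6 differed by a test of the difference itself (interaction -1.05 ± 0.25 on the log2 scale, edgeR adjusted p = 0.00708, 11 libraries). B6-13D2 against B6 gave a log2 fold change of 0.05 ± 0.19 and D2 against D2-13B6 gave 1.11 ± 0.17. The exchanged intervals have different first markers and each genotype is a single cell line. A trait of the D2-13B6 cell line alone therefore cannot be told apart from an effect of interval and genome. All 3 D2-13B6 libraries were below all 8 others. The summed accessibility of stem cell and fibroblast markers in D2-13B6, and the TMM factors of D2-13B6 replicates 1 and 2, also lay outside the range of the other lines, and their part in this difference was not tested.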

How the results depend on the processing

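Of 395 alternatives to 22 named fold changes, 355 kept their call or lack of one, 40 lost it and 0 reversed, and 8 of the 22 kept it throughout. A minimum fold of 1.5 left 2 called members in D2 against B6, 1 in D2 against D2-13B6, 5 in D2-13B6 against B6, 0 in D2 against B6-13D2 and 0 in the interaction, and 2, 4 and 26 pathway promoter regions in the first 3. In the same order it called 14629, 16970, 48265, 13723 and 975 of all 246840 regions tested. Of all 38070 promoter regions it called 1362, 1433 and 8202 in the first 3. Within 10 kb of the gene, fewer regions could be called: 4, 1, 7, 4 and 0. The regions that near were 4 at T, 2 at Mixl1, 5 at Eomes and 4 at Gsc. Total counts gave 9 for D2 against D2-13B6 and 5 for the interaction. Over all regions they gave 28292 higher and 32125 lower calls for D2 against B6 (33875 and 21713 with TMM), 39470 and 29236 for D2 against D2-13B6 (21056 and 37535), 41342 and 85687 for D2-13B6 against B6 (53419 and 49552), and 24950 and 26107 for D2 against B6-13D2 (28597 and 17862). The cause was not tested.

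Leaving out 1 library at a time gave 5 to 10 called members in D2 against B6, 0 to 0 in B6-13D2 against B6, 2 to 5 in D2 against D2-13B6, 12 to 17 in D2-13B6 against B6, 2 to 10 in D2 against B6-13D2 and 0 to 2 in the interaction. Pathway promoter regions ran from 20 to 42, 24 to 51 and 57 to 77 in D2 against B6, D2 against D2-13B6 and D2-13B6 against B6, and were 0 throughout in B6-13D2 against B6. With a single library left in B6-13D2, it was assumed to vary like the other groups. A replicate block gave 9, 0, 4, 16, 8 and 1 called members. Libraries with the same number showed no common deviation (r = -0.049 to 0.068 over 15 pairs, against -0.148 to 0.162 over 30 others). Deviations of the 2 or 3 libraries of a line are tied to each other, so these r cannot tell whether same-numbered libraries share a batch. Low counts, such as 5 to 35 a library in the T region 10.9 kb upstream, limit what can be detected.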
